A study of Mus musculus with 60 samples.

Results

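Astrocytes of the adult cortex express a group of genes for everyday upkeep of the tissue: 8 of them were followed here, namely Slc1a2, Slc1a3, Glul, Aqp4, Gja1, Aldh1l1, S100b and Slc4a4. Each gene was represented by the brightest probe set that the platform annotation pairs with its symbol alone. The 8 genes are among 18193 genes represented in this way, and all 8 were among the 11886 genes bright enough to be tested. Gfap and Vim, which encode the intermediate filaments GFAP and vimentin and are the usual marks of reactive astrocytes, were measured in the same way for comparison.

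Cortex was taken from male mice of 30 inbred strains, given in the labels as 10 to 11 weeks old. In every strain, 1 group drank plain water (0 mg/kg of drug) and the other received fluoxetine, an antidepressant that blocks serotonin reuptake, by mouth at 18 mg/kg per day for 21 days. Each of the 60 Affymetrix arrays carried the mixed RNA of 3 such mice, so that each strain gave 1 water and 1 fluoxetine array and the spread between single mice was not measured. Both groups had been through tail suspension and open field tests before the tissue was taken. The strains comprise C57BL/6J, C58/J, C57BLKS/J and C57BR/cdJ, then BALB/cJ, A/J, AKR/J, SJL/J, FVB/NJ, SWR/J, BUB/BnJ, MA/MyJ, NOD/LtJ and RIIIS/J. The others are DBA/2J, CBA/J, C3H/HeJ, 129S1/SvImJ, LP/J, BTBRT T(+) tf/J, NZB/BlNJ, P/J, I/LnJ, CE/J, SM/J, LG/J, MRL/MpJ, PL/J, NOR/LtJ and NZW/LacJ.

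As background, glutamate released at synapses is cleared mostly by the astrocyte transporters GLT-1, encoded by Slc1a2, and GLAST, encoded by Slc1a3. Glutamine synthetase, the product of Glul, turns the glutamate taken up into glutamine, which returns to neurons. The sodium bicarbonate cotransporter of Slc4a4 regulates pH around these cells, the water channel of Aqp4 sits in endfeet on blood vessels, and connexin 43, the product of Gja1, couples astrocytes through gap junctions. Aldh1l1 encodes a folate enzyme used as a general astrocyte marker, and S100b encodes a calcium-binding protein.

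The start regions of Slc1a3 and Gfap are shown because Slc1a3 had the widest range between strains among the 8 genes and Gfap the widest range of responses of all 10 genes, and because both hold a match to the same motif. Sequences come from RefSeq on build GRCm38.p6 and run 5′ to 3′ on the strand of the gene, from 150 bases before the annotated start to 10 bases after it. Slc1a3 lies at chr15:8710798-8710957 on the minus strand and Gfap at chr11:102897191-102897350 on the minus strand. Capitals mark matches on either strand to TTCNNNGAA (the palindrome bound by STAT factors) or TGACG (the core of the cyclic AMP response element).
Slc1a3: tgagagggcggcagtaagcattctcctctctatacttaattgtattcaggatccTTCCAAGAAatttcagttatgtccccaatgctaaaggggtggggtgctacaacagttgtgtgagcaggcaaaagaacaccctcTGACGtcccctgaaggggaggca
Gfap: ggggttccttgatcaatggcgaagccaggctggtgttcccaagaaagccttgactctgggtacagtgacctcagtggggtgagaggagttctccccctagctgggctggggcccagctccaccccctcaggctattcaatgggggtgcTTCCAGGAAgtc
Within the full windows of 300 bases in that table, TTCNNNGAA was found in 8.3% of 32851 promoters and TGACG in 20.8%. The match to TTCNNNGAA lay 96 to 88 bases before the start of Slc1a3, and from 2 bases before to 7 bases into the start of Gfap. Gja1 held TGAGTCA, a match to the AP-1 motif TGANTCA that 7.8% of promoters hold, and 2 matches to TGACG. A search for these 3 motifs found no match in the windows of Slc1a2, Glul, Aldh1l1, S100b, Slc4a4 and Vim. The motifs do not overlap each other in these windows, and 7 of the 8 genes and both comparison genes had a window in the table.

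All values are on the log2 scale of the intensities and are comparable between strains and treatments for 1 probe set, not between genes, because probe sets differ in brightness. Array medians were 39.1 to 43.1 in intensity, and the lowest value of any of the 8 genes on any array was 9.67, far above the array floor of 2.07. The markers of neurons, oligodendrocytes, microglia and endothelium were measured well above the floor. Of the choroid plexus and ependyma markers, Foxj1, Folr1 and Kl averaged 2.08, 2.71 and 3.52 and were too dim to be tested. Ttr of the same list averaged 7.29 and ran from 4.25 to 15.09, so its level differed widely between arrays. In such bulk RNA, fewer astrocytes and less RNA per astrocyte cannot be told apart. The p-values rest on the scatter of the within-strain difference over 30 strains, some of which share ancestry, and the number of arrays limits the precision.

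The 8 genes kept nearly the same level in the fluoxetine group as in the water group. No gene passed the threshold: 0 of 8 had an adjusted p under 0.05 in limma (strain entered as a block, Benjamini-Hochberg over all tested genes), a share to be read beside the 0.0589% of genes that passed. 1 of 8 had an unadjusted p under 0.05, beside 15.3% of all tested genes. The mean difference of fluoxetine minus water ran from -0.04 to 0.09 over the 8 genes with a median of 0.03, beside a median of -0.0029 over all tested genes. It was above 0 for 6 genes and below 0 for 2.

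**Figure D1:**
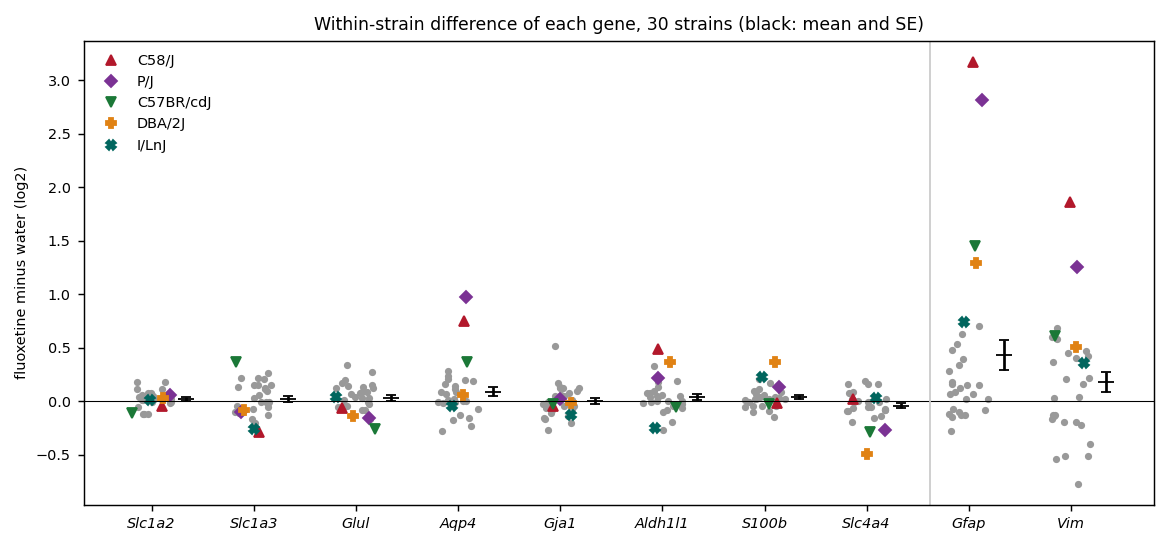
Fluoxetine minus water within each of 30 strains, on the log2 scale, for the 8 genes and, right of the grey line, Gfap and Vim; each point is 1 strain, coloured symbols mark the 5 strains with the largest difference over all other tested genes, and black marks show the mean and SE. The means of the 8 genes lie between -0.04 and 0.09, while Gfap reaches 3.17 in C58/J and 2.81 in P/J.

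Among the glutamate transporters, Slc1a2 was the least variable of the 8 genes. It ran from 14.63 to 15.13 with a median of 14.87 over the 30 water arrays, and from 14.70 to 15.07 with a median of 14.87 over the 30 fluoxetine arrays, so the groups overlapped almost fully. The mean difference was 0.02 (SE 0.0153; 95% interval -0.01 to 0.05; higher in 21 of 30 strains; limma adjusted p = 0.590). For this probe set the interval allows a change of at most 0.05 in the mean, although single strains ranged from -0.12 in BUB/BnJ to 0.18 in C3H/HeJ. Dimmer Slc1a2 probe sets, tested on their own, gave larger values in both directions. These were 0.11 for 1451627_a_at (SE 0.0352, higher in 22 of 30, limma adjusted p = 0.195) and -0.07 for 1439940_at and 1433094_at (limma adjusted p = 0.502 and 0.579). On the brightest probe set the strains varied little in response. The SD of the response over strains was 0.0764, at percentile 4.35 of all tested genes.

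Slc1a3 ran from 10.02 to 12.84 with a median of 12.59 in water, and from 10.39 to 12.87 with a median of 12.54 in fluoxetine. The lowest value of both groups was that of C57BR/cdJ, which stood apart from the other 29 strains in either treatment. The mean difference was 0.02 (SE 0.0287; 95% interval -0.04 to 0.08; higher in 14 of 30; limma adjusted p = 0.783). The extremes were 0.37 in C57BR/cdJ and -0.29 in C58/J.

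Glul, the enzyme that completes the uptake route, ran from 13.72 to 14.51 with a median of 14.26 in water and from 13.74 to 14.60 with a median of 14.24 in fluoxetine. The groups covered the same range. Its mean difference was 0.03 (SE 0.0244; 95% interval -0.02 to 0.08; higher in 18 of 30; limma adjusted p = 0.557), with extremes of -0.26 in C57BR/cdJ and 0.34 in BUB/BnJ.

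Slc4a4 ran from 10.69 to 11.47 with a median of 11.20 in water and from 10.76 to 11.46 with a median of 11.15 in fluoxetine. Again the groups overlapped over nearly their whole range. The mean difference was -0.04 (SE 0.0265; 95% interval -0.09 to 0.02; lower in 18 of 30; limma adjusted p = 0.526). The lowest strains were DBA/2J at -0.49 and C57BR/cdJ at -0.29.

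Aqp4 had the largest mean difference of the 8 genes. It ran from 11.11 to 12.23 with a median of 11.64 in water and from 11.17 to 12.78 with a median of 11.78 in fluoxetine. The 3 highest fluoxetine arrays, C58/J at 12.78, P/J at 12.56 and CE/J at 12.42, lay above every water array. The mean difference was 0.09 (SE 0.0456; 95% interval 0.0008 to 0.19; higher in 19 of 30; limma p = 0.0482, adjusted p = 0.322), a change of 6.72% that did not pass after adjustment. P/J with 0.97, C58/J with 0.75 and C57BR/cdJ with 0.37 gave the largest differences, and the median strain gave 0.04.

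Gja1 ran from 12.92 to 14.14 with a median of 13.76 in water and from 12.88 to 14.11 with a median of 13.79 in fluoxetine. Its mean difference was -0.0006 (SE 0.0268; 95% interval -0.06 to 0.05; higher in 13 of 30; limma adjusted p = 0.997), the smallest of the 8. The value lay far inside its error, and it changed sign when arrays were centred on their medians. BUB/BnJ stood out with 0.52, beside 0.17 in the strain next to it.

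Aldh1l1 ran from 9.75 to 10.63 with a median of 10.33 in water and from 9.67 to 10.79 with a median of 10.36 in fluoxetine. The mean difference was 0.04 (SE 0.0298; 95% interval -0.02 to 0.10; higher in 17 of 30; limma adjusted p = 0.526). C58/J with 0.49, DBA/2J with 0.37 and SWR/J with 0.33 were the strains with the largest increase. S100b ran from 11.23 to 11.80 with a median of 11.46 in water and from 11.21 to 11.93 with a median of 11.54 in fluoxetine. Its mean difference was 0.04 (SE 0.0201; 95% interval -0.0024 to 0.08; higher in 19 of 30; limma adjusted p = 0.364), with the largest value, 0.37, in DBA/2J.

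Between strains the picture was different. All 8 genes differed between strains in the F-test of the strain coefficients (8 of 8 with limma adjusted p under 0.05, the largest being 6.11e-05), beside 88.3% of all tested genes, so that being called is near the background. The intraclass correlation between a strain's arrays, which nears 1 where its water and fluoxetine arrays are alike and strains differ, ran from 0.644 for Slc4a4 to 0.941 for Slc1a3. Its median was 0.765 over the 8 genes and 0.593 over all tested genes. For Gfap it was 0.309 (limma F-test adjusted p = 0.0283) and for Vim 0.139 (limma F-test adjusted p = 0.166).

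**Figure D2:**
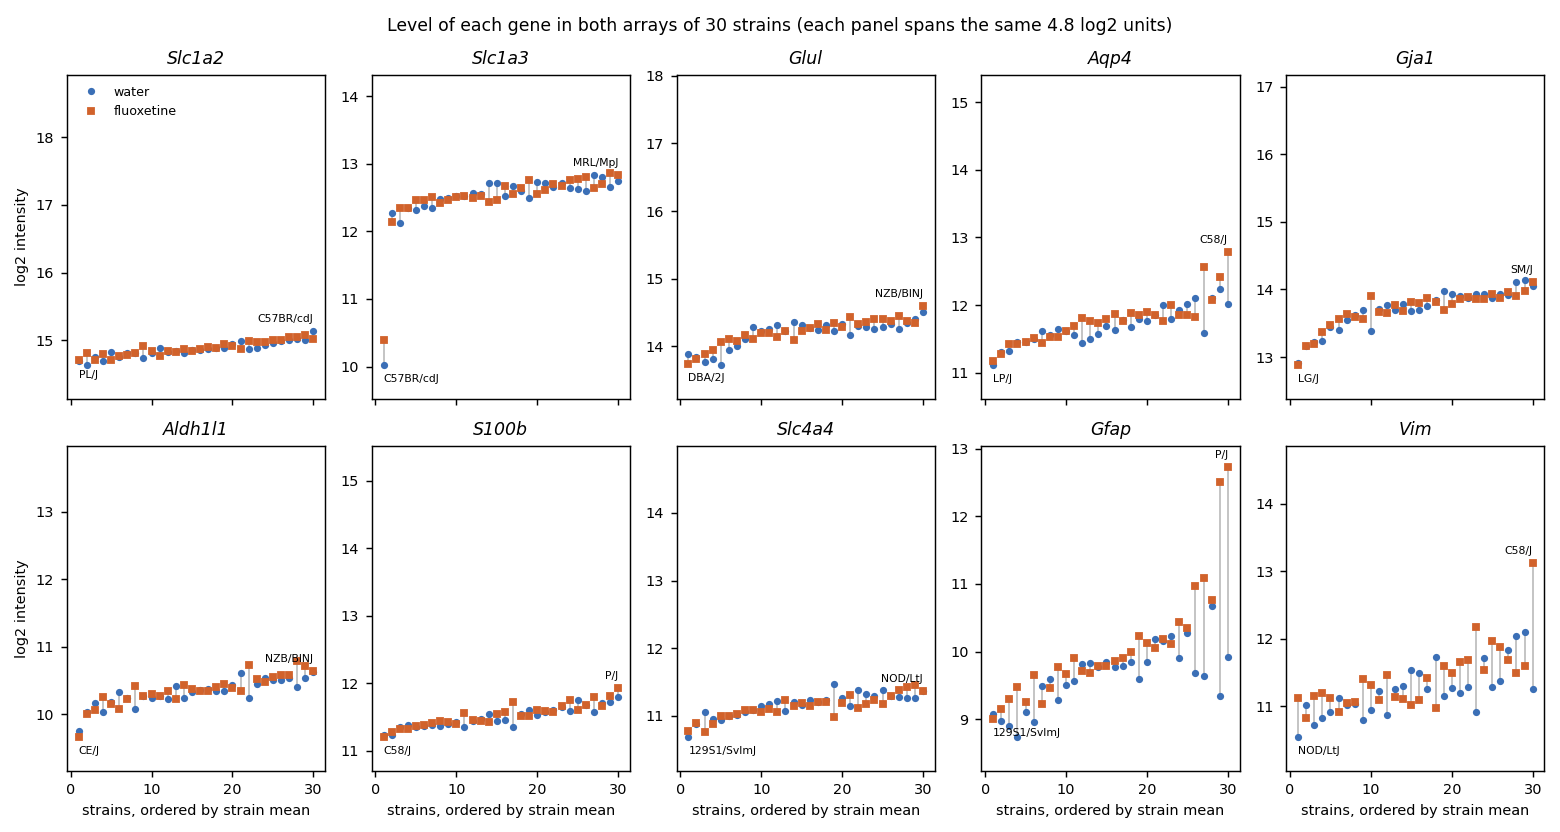
Log2 intensity of each gene in the water array (circles) and the fluoxetine array (squares) of 30 strains, ordered within each panel by the strain mean, with a grey line joining both arrays of a strain and the lowest and highest strain named. Slc1a3 is set apart in C57BR/cdJ. Both arrays of a strain mostly lie close for the 8 genes, but those of Aqp4 differ by 0.75 in C58/J and 0.97 in P/J. For Gfap the arrays of these strains lie farther apart, by 3.17 and 2.81.

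The strain means of Slc1a3 ran from 10.20 in C57BR/cdJ to 12.78 in MRL/MpJ, a range of 5.99-fold, but the next strain above C57BR/cdJ was CBA/J at 12.20. Without C57BR/cdJ the limma F of Slc1a3 dropped from 33.8 to 4.34 (adjusted p = 0.000147). In order of the strain means, 28 of 29 gaps between neighbouring strains were within the standard error of a difference between neighbours, and the gap above C57BR/cdJ of 2.00 was the exception. For Slc1a2 the strain means ran from 14.70 in PL/J to 15.07 in C57BR/cdJ, a range of 1.29-fold, and all 29 gaps were within that error. On the brightest probe sets C57BR/cdJ thus held the lowest Slc1a3 mean and the highest Slc1a2 mean, the latter by a gap within the error. Its high Slc1a2 was not seen on the other tested probe sets. Counted from the lowest strain, it ranked 12 on 1439940_at, 11 on 1451627_a_at and 8 on 1433094_at. For Slc1a3 it was again lowest on 1443749_x_at, but on 1452031_at it had 12.06 beside a median of 12.10.

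Glul was lowest in DBA/2J (13.81), MA/MyJ (13.82) and LP/J (13.83) and highest in NZB/BlNJ (14.56). The gap between NZB/BlNJ and NZW/LacJ (14.37) was 0.19. Gja1 was lowest in LG/J (12.90), followed by NZB/BlNJ (13.17) and C57BR/cdJ (13.20), and highest in SM/J (14.08), a range of 2.26-fold. For Glul 27 and for Gja1 26 of the 29 neighbouring gaps did not exceed the error. Sorting many strains by their means makes most neighbouring gaps small in any case. These counts therefore cannot show whether the strains form a continuous order.

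Aqp4 was lowest in LP/J (11.14) and highest in C58/J (12.40) and CE/J (12.33). In C58/J that position depends on the fluoxetine array, since the water array was 12.02, while in CE/J both arrays were high at 12.23 and 12.42. Aldh1l1 was lowest in CE/J (9.71), below 129S1/SvImJ (10.02), and highest in NZB/BlNJ (10.64). The order of strains thus differed from gene to gene: CE/J held the lowest Aldh1l1 and the second highest Aqp4.

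S100b was lowest in C58/J (11.22) and highest in P/J (11.86), a range of 1.56-fold. Slc4a4 was lowest in 129S1/SvImJ (10.74), and NOD/LtJ and NZB/BlNJ shared the highest level of 11.37, a range of 1.55-fold. Between neighbouring strains, 26 of 29 gaps of S100b and 28 of 29 of Slc4a4 were within the standard error of a difference, a comparison that is not a test.

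Gfap and Vim responded more in some strains than any of the 8 genes did. Gfap ran from 8.74 to 10.68 with a median of 9.73 in water and from 9.00 to 12.73 with a median of 9.88 in fluoxetine. Its mean difference was 0.43 (SE 0.141; higher in 22 of 30; limma adjusted p = 0.142) and that of Vim 0.18 (SE 0.0963; higher in 18 of 30; limma adjusted p = 0.385), so neither passed. The responses of Gfap were led by C58/J, where its level was 9.34 in water and 12.51 in fluoxetine, and by P/J, where it was 9.92 and 12.73. The SD of the response over strains was 0.806 for Gfap and 0.550 for Vim, beside 0.0764 to 0.258 for the 8 genes and a median of 0.158 over all tested genes.

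The difference in response was tested directly. In each strain the response of Gfap was subtracted from that of a member, and the mean was tested by flipping signs over strains (permutation test with 100000 draws, two-sided, Benjamini-Hochberg adjustment over 16 differences). On average all 8 genes responded less than Gfap, by -0.46 for Slc4a4 to -0.33 for Aqp4 (adjusted permutation p between 0.00453 and 0.0181). The member was lower in 18 strains for Slc1a3 and S100b and in 20 to 22 for the others. These 8 tests share the same Gfap responses, so they are not independent. Their adjustment covers 16 differences, whereas the Gfap difference alone did not pass over all tested genes (limma adjusted p = 0.142). For Slc1a2 the difference was -0.41 (SD 0.820, n = 30; lower than Gfap in 22 strains; adjusted permutation p = 0.00644), and for Aqp4 it was -0.33 (SD 0.628; lower in 21; adjusted permutation p = 0.00683). Against Vim 0 of 8 passed (differences of -0.22 to -0.08; smallest unadjusted permutation p = 0.0565). Without P/J, DBA/2J, C58/J, I/LnJ and C57BR/cdJ, the 5 strains with the largest difference over all other tested genes, 0 of 16 passed, and the difference of Slc1a2 from Gfap was -0.11 (adjusted permutation p = 0.205).

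The strains with the largest Gfap responses are given gene by gene, as fluoxetine over water on the linear scale. In C58/J, where Gfap was 9.00-fold and Vim 3.64-fold higher with fluoxetine, the ratio was 0.974 for Slc1a2, 0.820 for Slc1a3, 0.962 for Glul, 0.973 for Gja1, 0.984 for S100b and 1.01 for Slc4a4. Aqp4 and Aldh1l1 had higher ratios, 1.69 and 1.41, so that the uptake genes and the gap junction gene stayed near or below their water level while the water channel gene did not. In P/J, with ratios of 7.02 for Gfap and 2.38 for Vim, Aqp4 had a ratio of 1.96, Aldh1l1 1.17, S100b 1.10, Slc1a2 1.04, Slc1a3 0.931, Glul 0.893, Gja1 1.01 and Slc4a4 0.830. Each of these is a single pair of arrays with no replicate, so no strain's response has a test of its own.

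Responses were then correlated over the 30 strains for the 45 pairs of the 10 genes. Of 28 pairs within the 8 genes, 0 passed by Pearson r on the brightest probe sets (permutation test with adjustment over 45 pairs; 4 had an unadjusted p under 0.05), and their median r was 0.0263. By rank, Aqp4 and Gja1 passed, with Spearman rho = 0.644 (permutation p = 0.00019, adjusted 0.00855) where r was 0.287 (permutation p = 0.12, adjusted 0.337), and r was 0.510 without C58/J and P/J. With each gene's probe sets averaged, Slc1a3 with Gja1 (r = 0.564, adjusted permutation p = 0.0129) and Glul with Slc4a4 (r = 0.575, adjusted permutation p = 0.0108) passed. Which pairs within the 8 genes passed therefore depended on the measure. By Pearson r on the brightest probe sets, of 16 pairs with Gfap or Vim, 3 passed. Aqp4 and Gfap had r = 0.774 (permutation p = 0.00022, adjusted 0.0033) but Spearman rho = 0.215 (permutation p = 0.251), and r was 0.279 without C58/J and P/J, so the relation rests on those strains.

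Aqp4 and Vim had r = 0.753 (permutation p = 2e-05, adjusted 0.00045) and rho = 0.612 (permutation p = 0.00045), and r was 0.526 without C58/J and P/J. With those strains left out, the unadjusted permutation p of Aqp4 and Vim was 0.00417. Aldh1l1 and Gfap had r = 0.596 (permutation p = 0.00151, adjusted 0.0170), rho = 0.402 (permutation p = 0.0295) and r = 0.320 without C58/J and DBA/2J. Leaving out C58/J alone took it to 0.405 (adjusted permutation p = 0.173). Glul went the other way from Gfap, with r = -0.476 and rho = -0.398 (permutation p = 0.00852 and 0.0304; adjusted 0.0639 and 0.196). Its r with Gfap was -0.423 without BUB/BnJ and C57BR/cdJ and -0.486 without C58/J and P/J. Without the 5 strains with the largest difference over all other tested genes it was only -0.15 (adjusted permutation p = 0.684). That pair did not pass after adjustment on the brightest probe sets but did with averaged probe sets (r = -0.510, adjusted permutation p = 0.031).

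**Figure D3:**
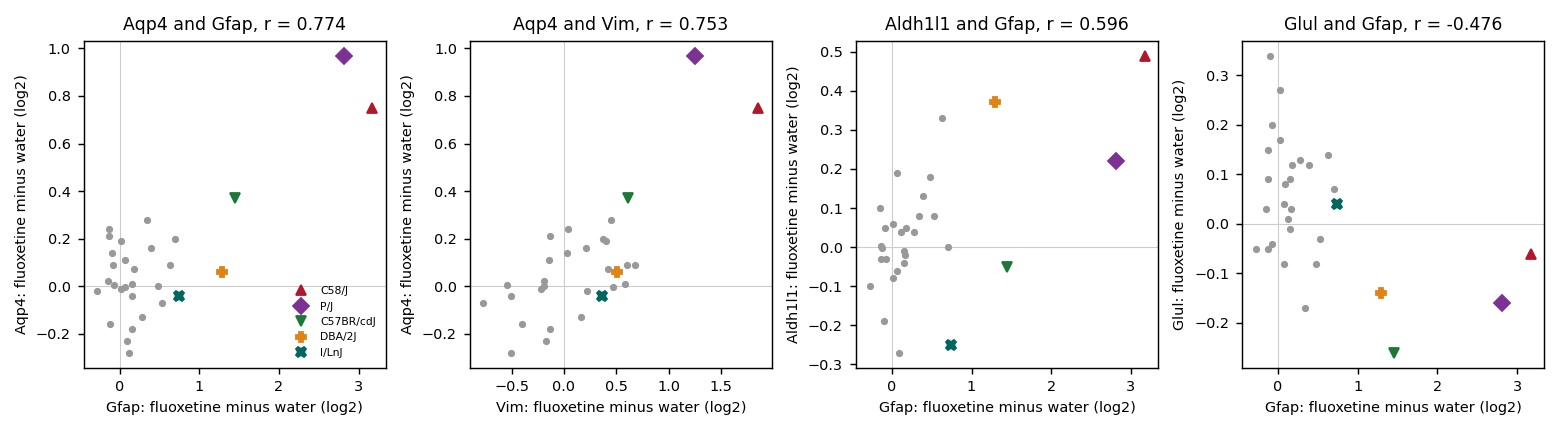
Fluoxetine minus water (log2) of Aqp4, Aldh1l1 and Glul against that of Gfap or Vim, with 1 point for each of 30 strains and coloured symbols for the 5 strains with the largest difference over all other tested genes. C58/J and P/J lie far to the right in every panel; Aqp4 keeps r = 0.526 with Vim without them but 0.279 with Gfap.

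For the strain means, 0 of 28 pairs within the 8 genes passed by Pearson r on the brightest probe sets (median r of -0.019; 4 with an unadjusted permutation p under 0.05), the strongest being S100b with Slc4a4 at r = 0.445 (permutation p = 0.0142, adjusted 0.128; rho = 0.447, permutation p = 0.0147; r = 0.444 without C58/J and P/J). With averaged probe sets that value was -0.122. Slc1a2 and Slc1a3 had r = -0.411 (permutation p = 0.00761, adjusted 0.114; rho = -0.204, permutation p = 0.281), and r was -0.259 without C57BR/cdJ and P/J and 0.193 with averaged probe sets. Within 1 treatment, a pair passed in each: Slc1a2 with Slc1a3 in the water arrays (r = -0.512, adjusted permutation p = 0.0333) and Slc1a3 with Slc4a4 in the fluoxetine arrays (r = 0.489, adjusted permutation p = 0.0244). Aqp4 correlated with Gfap (r = 0.607, permutation p = 0.00033, adjusted 0.0148; rho = 0.579, permutation p = 0.00083) and with Vim (r = 0.565, permutation p = 0.00106, adjusted 0.0238; rho = 0.489, permutation p = 0.00641).

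Both relations of Aqp4 became weaker when the pairs of values came from different arrays. With one gene read from the water array and the other from the fluoxetine array of a strain, r was 0.285 with Gfap and 0.189 with Vim (adjusted permutation p = 0.433 and 0.593). Without C58/J and LP/J, the strains farthest from the median of Aqp4, r was 0.476 with Gfap and 0.379 with Vim. The pair with Gfap did not pass without C58/J (r = 0.533) or without LP/J (r = 0.564), and the pair with Vim did not pass without AKR/J (r = 0.546), C58/J (r = 0.437) or LP/J (r = 0.532). Slc4a4 with Gfap had r = 0.415 (permutation p = 0.0225, adjusted 0.169; rho = 0.417, permutation p = 0.0220; r = 0.247 without 129S1/SvImJ and LP/J), and its r varied with the setting: 0.681 without the 5 strains (adjusted permutation p = 0.00405), 0.586 in water arrays (adjusted permutation p = 0.0229), 0.0364 in fluoxetine arrays (adjusted permutation p = 0.910) and 0.0801 with averaged probe sets (adjusted permutation p = 0.866).

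**Figure D4:**
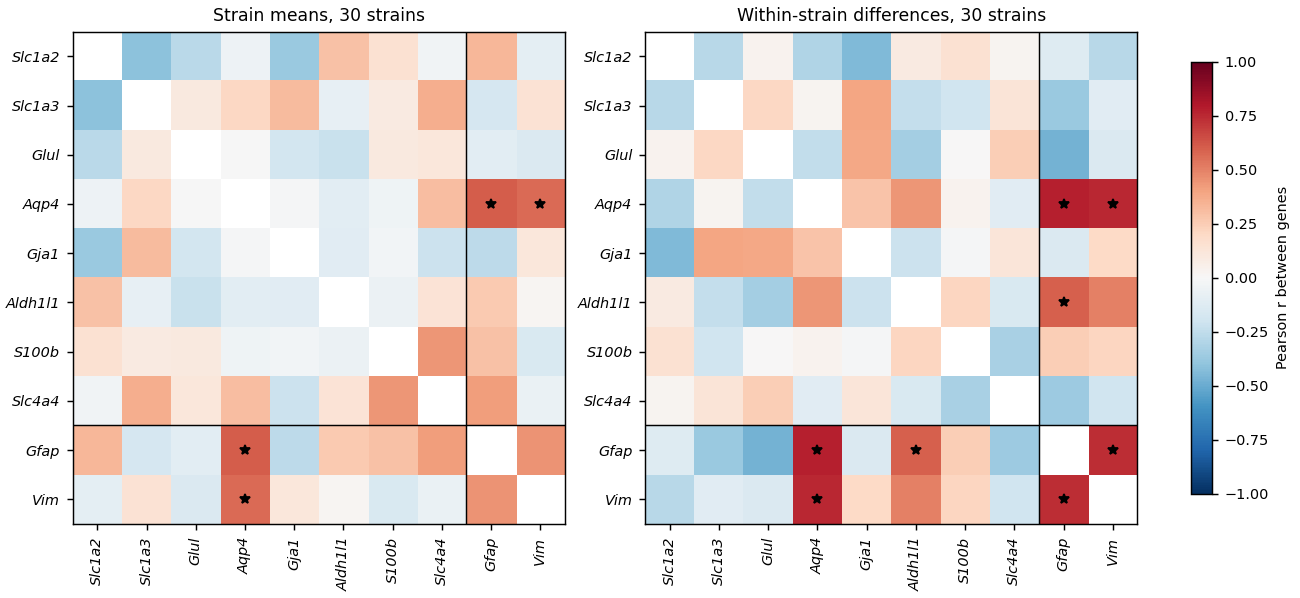
Pearson r between each pair of the 10 genes over 30 strains, for strain means (left) and for fluoxetine minus water (right); stars mark pairs with an adjusted permutation p under 0.05, black lines separate Gfap and Vim from the 8 genes, and the diagonal is blank. Stars fall in the rows of Gfap and Vim, and 0 of 28 pairs within the 8 genes carry one in either panel.

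Other cell types were read from marker lists on the same arrays. With fluoxetine the mean log2 level of 9 oligodendrocyte markers differed by -0.20 (SD 0.353; lower in 20 of 30 strains), with -0.57 in C58/J and -0.88 in P/J. All 9 of 9 measured oligodendrocyte markers had a mean difference below 0 (median of -0.22). Of them 7 had an unadjusted limma p under 0.05, beside 15.3% of all tested genes, and 0 passed the threshold. Their summed intensity ran from 33989 to 56198 in water and from 23796 to 58519 in fluoxetine. The 6 markers of oligodendrocyte precursors were all below 0 as well (median of -0.08; 3 with an unadjusted limma p under 0.05; 0 past the threshold). The 7 microglial markers differed by 0.05 (SD 0.159), with 0.61 in P/J and 0.39 in DBA/2J, and 5 of 7 were above 0. Their summed intensity ran from 5241 to 8305 in water and from 5565 to 12048 in fluoxetine, and none of the oligodendrocyte or microglial markers lay at the floor.

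Set against these scores, those of the other cell types and the 3′ minus 5′ signals of Actb and Gapdh, 0 of 128 relations of the 8 genes passed after adjustment. The smallest p belonged to the response of Slc1a2 with that of the neuron markers (r = 0.587, permutation p = 0.00074, adjusted 0.0947; rho = 0.561, permutation p = 0.00156; r = 0.549 without BUB/BnJ and MA/MyJ). Gja1 had the opposite sign with the same markers (r = -0.551, permutation p = 0.00178, adjusted 0.109; rho = -0.275, permutation p = 0.140; r = -0.319 without BUB/BnJ and MA/MyJ). At the same adjusted p were the response of Aqp4 with the microglial markers (r = 0.573, permutation p = 0.00403, adjusted 0.109; rho = 0.299, permutation p = 0.109; r = 0.312 without DBA/2J and P/J), that of S100b with them (r = 0.542, permutation p = 0.00407; rho = 0.447, permutation p = 0.0135; r = 0.368 without DBA/2J and P/J) and the strain means of Slc4a4 with the endothelial markers (r = 0.506, permutation p = 0.00425; rho = 0.395, permutation p = 0.0319; r = 0.491 without BUB/BnJ and CE/J). The relations of Gfap and Vim were adjusted as a separate, smaller family of 32. In it the response of Gfap passed with the microglial markers (r = 0.674, permutation p = 0.00125, adjusted 0.0400; rho = 0.656, permutation p = 0.00015; r = 0.424 without DBA/2J and P/J). The response of Slc1a2 with the neuron markers had a smaller unadjusted p but was adjusted over 128. These outcomes therefore do not separate Gfap from the 8 genes. The part of these cell types in the relations of Aqp4 and Aldh1l1 with Gfap was not tested.

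Most of the 8 genes have more than 1 probe set, and these were also tested one by one over 25783 probe sets, a step added after the values had been seen. Of these, 0.0465% passed with fluoxetine. A probe set of Slc4a4, 1421225_a_at, was among them: it ran from 5.91 to 7.95 with a median of 7.41 in water and from 5.23 to 7.85 with a median of 7.24 in fluoxetine. The groups overlapped because strains differed far more than treatments, but within strains the value fell by 0.24 (SE 0.0465; lower in 25 of 30 strains; limma adjusted p = 0.0423). The brightest probe set of Slc4a4 gave -0.04.

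Another probe set of Slc4a4, 1426432_a_at, gave -0.11 (lower in 24 of 30; SE 0.0273; limma adjusted p = 0.104), and 1452071_at gave -0.05 (SE 0.0297; limma adjusted p = 0.465). All 4 probe sets of Slc4a4 that could be tested were thus below 0, by unequal amounts. The call on 1421225_a_at is near its threshold. It held without 129S1/SvImJ, A/J, BALB/cJ, BUB/BnJ, LP/J, NOD/LtJ, PL/J, RIIIS/J or SJL/J, left out singly, and was lost without each of the other 21 strains, with values of -0.26 to -0.22 and limma adjusted p of 0.0276 to 0.0972. Without the 5 strains the value was -0.18 (limma adjusted p = 0.364).

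The strain means of 1421225_a_at formed 2 separate bands, with 11 strains at 5.64 to 6.58 and 19 strains at 7.24 to 7.90. Across strains they had r = -0.218 with the brightest probe set of the same gene, whose range was 0.63. A probe set of Slc1a2, 1439940_at, formed 3 bands. It lay at 9.46 to 10.72 in 8 strains, among them I/LnJ, SM/J and A/J, at 11.82 to 12.49 in 8 strains that include C57BL/6J, C57BLKS/J, C57BR/cdJ and C58/J, and at 13.26 to 13.73 in 14 strains that include BALB/cJ, C3H/HeJ and DBA/2J. Both arrays of a strain fell in the same band, and r with the brightest Slc1a2 probe set was 0.0347. Whether such bands reflect transcript levels or the fit of the probes to each strain's sequence was not tested.

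**Figure D5:**
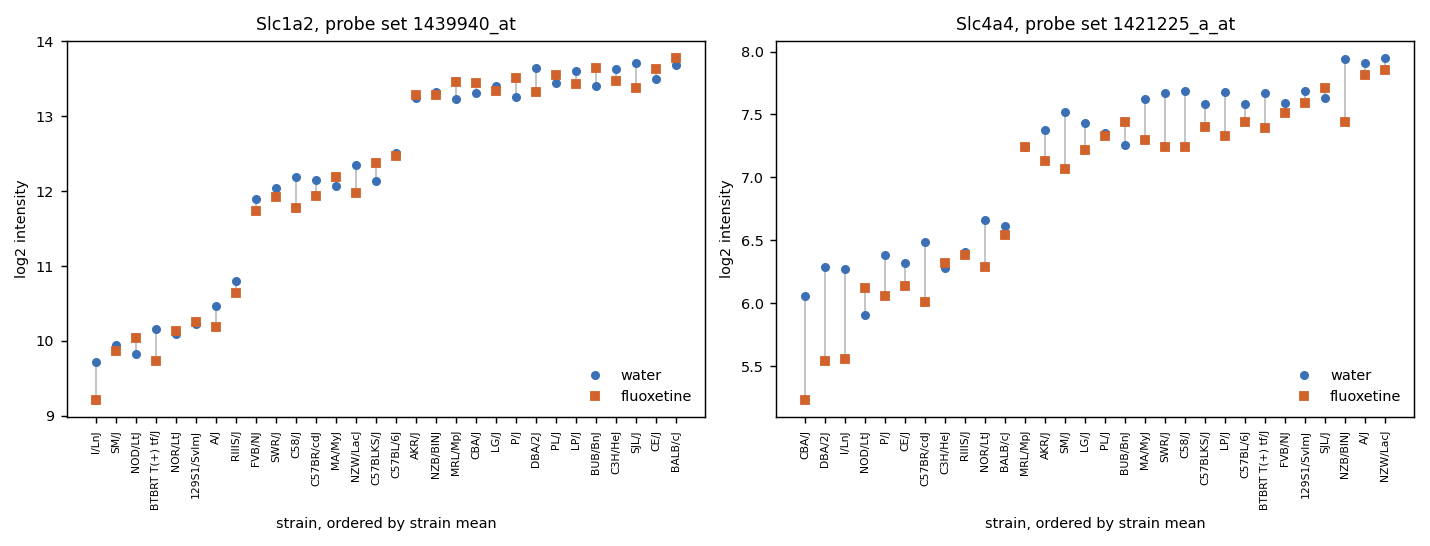
Log2 intensity in the water array (circles) and the fluoxetine array (squares) of 30 strains, ordered by strain mean, for a second probe set of Slc1a2 (left) and a dimmer probe set of Slc4a4 (right). The Slc1a2 probe set lies in 3 bands of 8, 8 and 14 strains, and the Slc4a4 probe set in 2 bands of 11 and 19 strains, with fluoxetine below water in 25 of 30 strains.

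The low Slc1a3 of C57BR/cdJ was seen in 2 of the 5 probe sets bright enough to test: the brightest, 1426340_at (10.20), and 1443749_x_at (9.74, beside 10.38 in the next strain). In 1452031_at C57BR/cdJ had 12.06 and in 1426341_at 10.10, inside the range of the other strains. For Gja1, LG/J was lowest or second lowest in all 5 probe sets bright enough to test, at 7.79 in 1415801_at beside 8.36 in the next strain. In 1437992_x_at and 1438650_x_at C57BR/cdJ was the lowest. For Aqp4 the other probe sets gave differences in the same direction in the leading strains, 0.72 and 0.51 in C58/J and 0.67 and 0.87 in P/J. The signal from probe sets whose names end in _x_at or _s_at, which include those used for Vim and Gfap, can come from several similar transcripts.

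The genes most like each member in strain means, by Pearson r over 30 strains among all tested genes, are given as a description. For Slc1a3 these were Oxct1 (r = 0.938), which encodes a mitochondrial enzyme of ketone use, Nadk2 (r = 0.932), a mitochondrial NAD kinase, and Dusp19 (r = 0.887). In C57BR/cdJ all were at their lowest, with Oxct1 at 11.85 beside a median of 13.72, Nadk2 at 9.48 beside 10.57 and Dusp19 at 2.23 beside 7.39. Oxct1 and Nadk2 lie on the chromosome of Slc1a3, 23 and 2 genes away in the RefSeq order, and Dusp19 lies on another. Without C57BR/cdJ, r dropped to 0.191, 0.426 and -0.091.

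For Gja1 the most alike were Cherp (r = 0.890), Ythdf3 (r = 0.863) and Mdh1 (r = 0.845), and r was 0.876, 0.811 and 0.811 without LG/J, the strain farthest from the median. For Aqp4 they were Serpinh1 (r = 0.776), a chaperone of collagen, Itga6 (r = 0.700), an integrin, and Ifitm3 (r = 0.652), an interferon-induced membrane protein. For Glul they were Syt4 (r = 0.623), Rgs16 (r = 0.595), 6 genes away on the same chromosome, and Bak1 (r = 0.583). Aldh1l1 was most like Akr7a5 (r = 0.690), which dropped to 0.411 without CE/J. Slc1a2 was most like Ids (r = 0.700), S100b like Nacc2 (r = 0.709) and Slc4a4 like Phkg2 (r = 0.757).

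In the lists of related genes, too, no gene passed the threshold with fluoxetine. Of 35 further astrocyte housekeeping and membrane genes that could be tested, 14 were above 0 and 21 below 0 with fluoxetine, and 0 passed (7 with an unadjusted p under 0.05; median of -0.01). The smallest p among them belonged to Slc7a10, a transporter of small neutral amino acids, at -0.11 (lower in 19 of 30; SE 0.0329; limma adjusted p = 0.122), and next came Slc16a1, a monocarboxylate transporter, at 0.14 (SE 0.0496; higher in 23 of 30; limma adjusted p = 0.163). Gpc5, a glypican, gave -0.07 (limma adjusted p = 0.206) and Cst3, the secreted protease inhibitor cystatin C, 0.04 (limma adjusted p = 0.220).

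Between strains 34 of these 35 genes passed the limma F-test, beside the 88.3% of all tested genes. Kcnj16, a potassium channel subunit, had strain means from 2.94 in MRL/MpJ to 8.18 in BALB/cJ, and Ednrb, an endothelin receptor, from 8.18 in LP/J to 10.91 in BUB/BnJ. Slc7a11, the cystine and glutamate exchanger, ran from 6.75 in PL/J to 8.81 in C3H/HeJ. Gpc5 was lowest in C57BR/cdJ, at 8.75 beside a median of 10.02. Each list gene, here and below, was read on its brightest probe set alone. Whether so wide a range reflects transcript levels or the fit of the probes to each strain's sequence was not tested.

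In the glutamate and glutamine cycle 17 genes could be tested, 9 above 0 and 8 below 0, with 0 past the threshold (4 with an unadjusted p under 0.05; median of 0.0008). The neuronal glutamate transporter Slc1a1 gave 0.05 (limma adjusted p = 0.150), the GABA-synthesising enzyme Gad2 0.08 (limma adjusted p = 0.204), the glutamate transporter Slc1a6 -0.10 (limma adjusted p = 0.229) and the glutamine transporter Slc38a1 -0.05 (limma adjusted p = 0.276). Strain means ran widely for Slc17a7, which loads glutamate into synaptic vesicles, from 10.71 in A/J to 13.41 in I/LnJ, and for its relative Slc17a6 from 7.37 in P/J to 10.21 in NZB/BlNJ. Slc38a5, a glutamine transporter, ran from 5.02 in LP/J to 6.20 in SWR/J. Of the 17 genes, 15 passed between strains.

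Of 8 genes of bicarbonate and ion transport, 2 were above 0 and 6 below 0, with 0 past the threshold (3 with an unadjusted p under 0.05; median of -0.03). Car4, a membrane carbonic anhydrase that supplies bicarbonate to transporters such as that of Slc4a4, came nearest at -0.14 (lower in 22 of 30; SE 0.0314; limma adjusted p = 0.0764). The neuronal bicarbonate transporter Slc4a10 gave 0.05 (limma adjusted p = 0.262), the chloride cotransporter Slc12a2 -0.05 (limma adjusted p = 0.326) and the anion exchanger Slc4a3 -0.05 (limma adjusted p = 0.383). The probe set of Slc8a1, the sodium and calcium exchanger, was at 2.77 in CE/J, near the array floor of 2.07, and at 6.17 in the strain above it, beside a median of 11.13. The bicarbonate transporter Slc4a8 ran from 6.97 to 8.25 and the anion exchanger Slc4a2 from 6.43 to 7.46 over strains. Of the 8 genes, 8 passed between strains.

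Among 5 genes of the protein complex that anchors Aqp4, 4 were above 0 and 1 below 0, with 0 past the threshold and 0 at an unadjusted p under 0.05 (median of 0.02). Their mean differences were 0.04 for Utrn, 0.02 for Dag1, 0.03 for Dtna, 0.01 for Sgce and -0.01 for Dmd, all parts of the dystrophin complex. Among 8 gap junction and pannexin genes, 5 were above 0 and 3 below 0, with 0 past the threshold (2 with an unadjusted p under 0.05; median of 0.01). Panx1, a channel for release of ATP, gave 0.14 (limma adjusted p = 0.194), and the connexin genes Gjc1, Gjd2 and Gjc3 gave -0.08, -0.09 and -0.14 (limma adjusted p = 0.326, 0.383 and 0.390). Over strains the connexin genes Gjb2 and Gja4 ran from 7.65 to 9.19 and from 4.34 to 5.80. Between strains 4 of the 5 anchoring genes and 4 of the 8 gap junction and pannexin genes passed the limma F-test.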

How the data were processed

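The authors deposited linear intensities for 60 arrays; the submitters' processing notes name GCRMA, with no version given in the sources used here, which corrects background by probe sequence and normalizes between arrays, and it compresses values near the floor. They were taken to log2 without a pseudocount. Of 45101 probe sets, 34945 had 1 gene symbol, 932 several, 9160 none and 64 were controls; the brightest probe set stood for a gene. Genes at log2 4 or more in at least 6 arrays were tested with limma 3.58.1 in R 4.3.3 (lmFit, eBayes, strain as a block, Benjamini-Hochberg at 0.05), checked on simulated data. The strain label pairs the arrays: 30 of 30 fluoxetine arrays correlated best with the water array of their own strain (r of 0.519 to 0.855). Correlations and sign flips used 100000 permutations, two-sided (SciPy 1.17.1). No scan dates are in the sources used here, so no batch was entered. The members, lists and tests were chosen with earlier results of these data known. Named are the 8 genes, Gfap and Vim, in each list the 4 with the smallest p and the 3 with the widest strain range, and the 3 genes most alike to each member; only the first is named for some.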

Additional observations from a re-analysis of the deposited data

How the results depend on the processing

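Of the 8 genes 0 passed with fluoxetine and 7 or 8 between strains under every alternative run. The lower count came with the second brightest probe set, where that of Aldh1l1 was too dim to be tested and the other 7 genes passed. The strain pairs the arrays, and with no replicate block 0 of 8 and 0 of all tested genes passed, where the blocked fit called 7 genes in all; the other alternatives gave 0 to 9 genes and leaving out 1 strain 0 to 21. Mean differences of members near 0 changed sign: Slc1a2 was -0.0004 on averaged probe sets and -0.07 on the second one, Slc1a3 -0.05 and -0.02, Glul -0.03 on the second one, and Gja1 0.0018 with centred arrays, 0.01 without the 5 strains and 0.01 with the oligodendrocyte score as a covariate (-0.02 to 0.01 without 1 strain). Against the 2 pairs of strain means called (Aqp4 with Gfap and with Vim), Spearman called 1 (Aqp4 with Gfap), averaged probe sets 0, omission of the 5 strains (added after seeing the data) 1 other pair (Slc4a4 with Gfap), water arrays 3 (1 of them within the 8 genes), fluoxetine arrays 4 (1 of them within the 8 genes), no shared array 0, omission of the 2 farthest strains 0 and omission of 1 strain 0 to 4. Against the 4 pairs of responses called, Spearman called 2 (Aqp4 with Vim, and Aqp4 with Gja1, which is not among the 4), averaged probe sets 6 (Aldh1l1 with Gfap lost; Slc1a3 with Gja1, Glul with Slc4a4 and Glul with Gfap gained), centred arrays 5, omission of the 5 strains 0, of the 2 farthest 0 and of 1 strain 4 to 6. The 8 called differences from Gfap became 0 without the 5 strains, where Slc1a3 and Glul minus Vim were 0.01 and 0.03, and with Vim counted were 8 to 9 without 1 strain. Among the alternatives that kept more than single strains in question, up to 9 of 16 passed, and the adjusted permutation p of Slc4a4 minus Vim fell as low as 0.0443. The strain differences of Gfap did not pass with no filter (limma adjusted p = 0.0664), and those of Vim passed without the 5 strains (limma adjusted p = 0.0323). The cause was not tested.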
